A study of Mus musculus with 24 samples.

Results

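The clustered protocadherins are cell-surface adhesion proteins of the cadherin superfamily, encoded side by side in an alpha, a beta and a gamma cluster on mouse chromosome 18. They were taken here as every row of the 2 deposited count tables whose gene symbol has the form Pcdha, Pcdhac, Pcdhb, Pcdhga, Pcdhgb or Pcdhgc followed by a number. The rule found 58 of 57010 rows: 14 alpha genes (12 alternate and 2 of C type), 22 beta genes and 22 gamma genes (12 of type A, 7 of type B and 3 of type C). The rows were read in GT1-7 cells, an immortalised mouse hypothalamic line with the features of neurons that make gonadotropin-releasing hormone (GnRH).

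The fractionation experiment compared wild-type cells (wt) with a line that stably expresses GFP-Mkrn3 (Mkrn3ox), in total RNA and in cytoplasmic RNA. In the RNA immunoprecipitation (RIP) experiment, GT1-7 cells received 6 µg of a GFP or a GFP-Mkrn3 plasmid, and 24 h later the lysate was split into a 5% input and a pull-down with GFP-trap beads (IP). Each of the 8 groups had 3 libraries, made with CEL-seq2, a method that reads RNA near its 3′ end. Mkrn3 is an imprinted RING-finger protein with zinc fingers that bind RNA, and its loss of function in people is a cause of early puberty. The labels do not say how many clones the stable line comprises or what promoter drives either construct, nor whether a group's 3 libraries are separate cultures. The p-values thus cover only the spread between these libraries, which may be technical.

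In the alpha and gamma clusters each gene has its own promoter and 1 large variable exon, which encodes the extracellular domains, the membrane span and part of the cytoplasmic tail. That exon is spliced to constant exons at the end of the cluster, which all members share. Beta genes are single-exon genes without a constant part. A neuron usually makes only some of the alternate isoforms, chosen by CTCF, cohesin and DNA methylation, and the resulting combination lets its branches tell self from non-self; C-type genes are less subject to this choice.

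All 58 genes have a position in RefSeq (GRCm38.p6). The alpha genes lie at chr18:36930285-37188897, the beta genes at chr18:37264998-37521419 and the gamma genes at chr18:37661775-37841873, a stretch of 911.6 kb in all. RefSeq annotates 57 of the genes as protein coding and Pcdhgb8 as a transcribed pseudogene. Of the 22 gamma genes, 10 end at base 37841870 and 9 at base 37841873, so their annotated 3′ parts coincide, whereas no beta gene overlaps the next. A read within the constant exons lies in many rows at once, and how such reads were counted, and whether strand was used, cannot be read from the labels or files at hand. For alpha and gamma genes, the values below are therefore counts of a row and not amounts of an isoform. The 2 composite rows that span from the alpha cluster to the end of the gamma cluster, Gm37013 and Gm38666, held 0 counts in all 24 libraries.

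Depth differed between the experiments. RIP libraries held 6254703 to 14575652 counts in 15566 to 20599 detected genes, and fractionation libraries held 374386 to 759271 counts in 8309 to 11284 genes. The Mkrn3 row held 33 to 60 counts in the GFP libraries, 28280 to 32451 in the GFP-Mkrn3 inputs and 86579 to 141568 in the GFP-Mkrn3 IPs. In the fractionation table the Mkrn3 row held 0 counts in the 3 libraries labelled Mkrn3ox total, 1, 0 and 5 in those labelled Mkrn3ox cytoplasm and 0 to 1 in each wt library, so these counts do not bear out the label. Of 17 GnRH neuron markers, 12 or 13 held counts in each RIP group, and Elavl4, Gal, Msx1 and Snap25 were at 0 in every RIP group. Of 13 glial markers, 5 or 6 held counts in each RIP group, and Aqp4, Mog, Olig1, Olig2, Slc1a3 and Sox10 were at 0 in every RIP group.

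In the RIP table, gamma rows carried most of the protocadherin counts, beta rows 10.9% of them and alpha rows almost none. Counts were found in 42 of the 58 rows, 22761 in all. The gamma C row Pcdhgc3 (ENSMUSG00000102918, chr18:37806410-37841873) held 12342 of them. The next rows were Pcdhgb1 (ENSMUSG00000103037, 2812 counts), Pcdhgb6 (2377 counts) and Pcdhb22 (ENSMUSG00000073591, chr18:37518353-37521419, 1377 counts). Together these 4 rows took 88.1% ± 0.83 of the protocadherin counts in the GFP inputs (SD, n = 3) and 88.6% ± 0.57 in the GFP-Mkrn3 inputs.

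**Figure D1:**
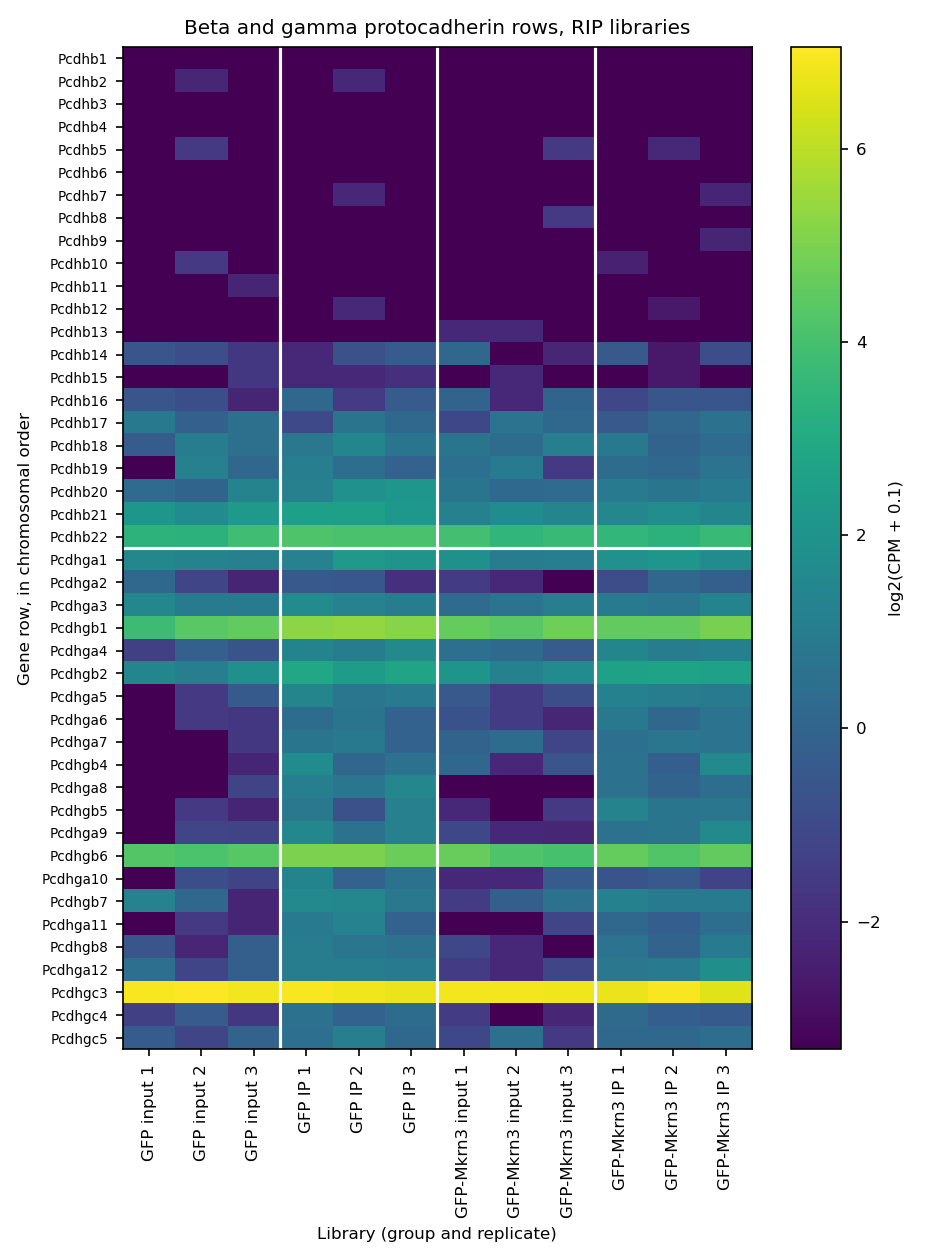
Level of each beta and gamma row in the 12 RIP libraries, as log2(CPM + 0.1), with genes in chromosomal order from top to bottom and libraries grouped by plasmid and fraction. Pcdhgc3, Pcdhgb1, Pcdhgb6 and Pcdhb22 are the bright rows in every library, Pcdhb1 to Pcdhb13 are dark throughout, and many gamma rows are brighter in the IP columns than in the input columns.

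The alpha rows were close to empty. Pcdha3 and Pcdha5 held 1 count each, both in the same GFP-Mkrn3 input library, and the other 12 alpha rows held none in any RIP library. The C-type genes Pcdhac1 and Pcdhac2 were among those at 0. A count of 0 allows up to 0.206 to 0.48 CPM (counts per 1000000 counted), depending on the library. This floor of 3 counts, like all intervals here, covers counting error only.

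The beta counts lay at the gamma end of the cluster. The rows Pcdhb1 to Pcdhb13 held 0 to 5 counts per library when summed, and the rows Pcdhb14 to Pcdhb22 held 135 to 287. In the GFP inputs the mean was 11.6 CPM for Pcdhb22 and 4.02 CPM for Pcdhb21, its neighbour. It was 1.06 to 1.34 CPM for Pcdhb17, Pcdhb18 and Pcdhb19. These are counts near 3′ ends and were not divided by gene length. The 4 beta rows at 0 in all RIP libraries were Pcdhb1, Pcdhb3, Pcdhb4 and Pcdhb6.

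Every gamma row held counts. Pcdhgc3, a C-type gene known for promoting dendrite branching through Axin1, was at 123, 133 and 118 CPM in the GFP inputs and at 117, 116 and 113 CPM in the GFP-Mkrn3 inputs. The other C-type genes were far lower in counts: Pcdhgc4, required for the survival of many interneurons, held 68 over the 12 libraries, and Pcdhgc5 held 102. Pcdhgb1 was at 13.6, 21.3 and 23.4 CPM in the GFP inputs and Pcdhgb6 at 19.5, 17.2 and 20.2 CPM. Between and beside them, rows such as Pcdhga8, Pcdhga11 and Pcdhgb5 held 3 counts each over the 3 GFP inputs. In bulk RNA, such low values cannot tell few cells with the RNA from little RNA in each cell.

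The first comparison asked whether the GFP-Mkrn3 plasmid altered protocadherin RNA in the transfected cells. No row was called in the inputs. The test was edgeR's quasi-likelihood test, two-sided, with an adjusted p under 0.05 over the 13052 genes that passed a filter on low counts; 25 of the 58 rows passed it and 0 were called, against 0.0153% of all tested genes. At an unadjusted p under 0.05 there were 3 rows, and DESeq2 called 0. The 3 were Pcdhga7 (log2 fold change 3.09 ± 0.92, 2 counts with GFP and 19 with GFP-Mkrn3), Pcdhgb4 (3.44 ± 1.30, 1 and 14 counts) and Pcdhga12 (-1.60 ± 0.71). Summed over the 22 gamma rows, the level was 176 CPM ± 6.43 with GFP and 173 CPM ± 7.73 with GFP-Mkrn3 (SD, n = 3), and the libraries overlapped. The beta sum was 21.9 ± 3.36 and 22.03 ± 2.2 CPM, also with overlap. The gamma C sum, nearly all of it Pcdhgc3, did not overlap, at 124, 134 and 119 CPM with GFP and 118, 117 and 114 CPM with GFP-Mkrn3. Row by row, 2 of the 42 rows with counts had every GFP-Mkrn3 input above every GFP input, against 4.54% of all rows. Every GFP-Mkrn3 input lay below in 2 others, against 3.84% of all rows. For Pcdhgc3 the log2 fold change was -0.11 ± 0.10 (SE), not called.

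The second comparison asked which RNAs were held by the beads relative to the input, for each plasmid. With the GFP control plasmid, the summed beta, gamma A and gamma B levels were higher in the IP, whereas Pcdhgc3 was not called. Of single gamma A and B rows, Pcdhga1, Pcdhga3 and Pcdhgb7 were tested and not called. The gamma A sum was 8.04, 7.28 and 7.61 CPM in the GFP inputs and 24.7, 22.6 and 21.7 CPM in the GFP IPs. All 3 IPs lay above all 3 inputs, and the mean was 3.01 times as high. The gamma B sum was 38.6, 42.0 and 48.3 CPM in the inputs and 86.8, 84.2 and 75.0 CPM in the IPs, again without overlap and 1.91 times as high on average. The beta sum did not overlap either, at 19.4, 20.6 and 25.7 CPM in the inputs and 31.2, 32.6 and 30.4 CPM in the IPs. Its mean was 1.43 times as high. The gamma C sum, nearly all of it Pcdhgc3, was 124, 134 and 119 CPM in the inputs and 126, 115 and 109 CPM in the IPs, which overlapped.

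**Figure D2:**
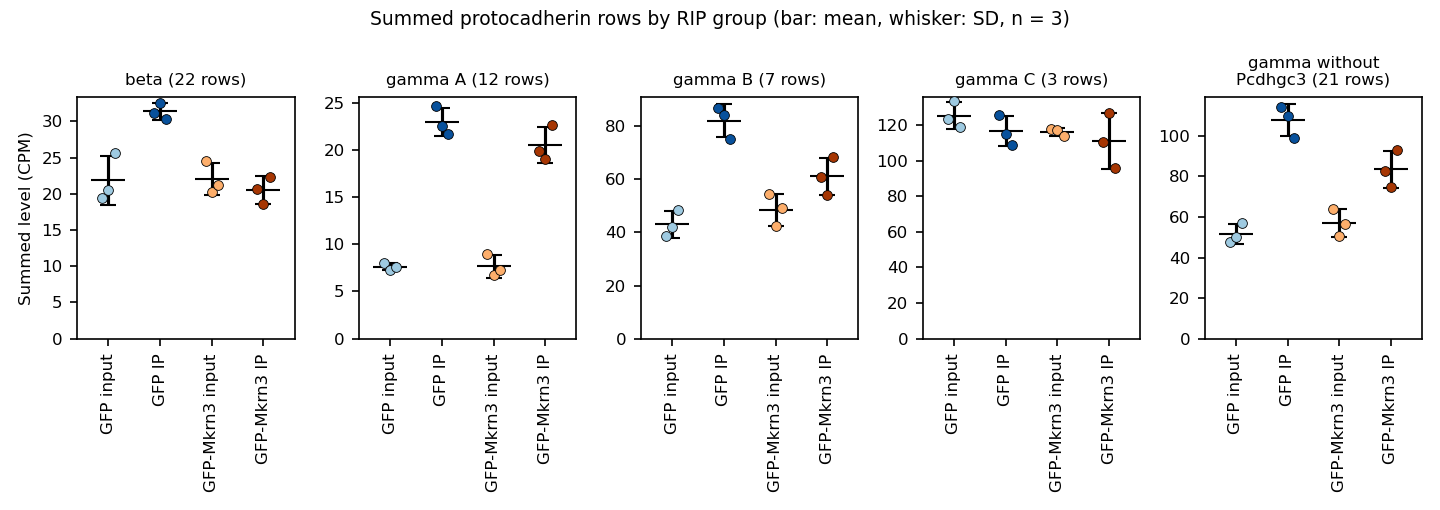
Summed level in CPM of the beta rows and of the gamma rows by type, with 1 point per library and the mean ± SD (n = 3) for each of the 4 RIP groups; each panel has its own axis from 0. The gamma A points of both IP groups lie above both input groups, and the beta and gamma B points are highest in the GFP IPs. The gamma C points of each IP group overlap those of its input.

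With GFP, 16 of the 25 tested rows were called higher in the IP and 0 lower, where 25.1% of all tested genes were higher and 25.2% lower. Over all genes these calls were 3274 higher and 3291 lower; scaled by library size alone in place of TMM they were 2554 and 3952, with the median log2 fold change of all genes at -0.11 in place of 0.00. The filter bears on this count: 11 rows reached the filter's level of 1.17 CPM in at least 3 of the 6 inputs, and the other 14 passed mainly through the IPs, where they are high, so their calls follow in part from the filter. Of the 11 rows, 4 were called higher (Pcdhb22, Pcdhgb1, Pcdhgb2 and Pcdhgb6), and of the 14, 12 were. A count that needs no filter gives each row by whether its libraries overlap. Over all 26284 rows with any count, 17.8% had every GFP IP above every GFP input. Among the 22 gamma rows 17 did, and among the 18 beta rows with counts 1 did. The shares over all rows, here and below, include rows with too few counts to do so, whereas each gamma row held at least 52. None of these gamma or beta rows had every IP below every input (15.1% of all rows did).

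The abundant rows give the most precise values. Pcdhgb1 was at 13.6, 21.3 and 23.4 CPM in the GFP inputs and at 37.6, 41.0 and 35.6 CPM in the GFP IPs, without overlap. Its log2 fold change was 0.96 ± 0.17 (SE), with an adjusted p of 0.00015 in edgeR. Pcdhgb6 was at 19.5, 17.2 and 20.2 CPM in the inputs and at 32.4, 32.3 and 26.1 CPM in the IPs, also without overlap. Its log2 fold change was 0.68 ± 0.16. Pcdhb22, the beta gene next to the gamma cluster, was at 10.3, 10.1 and 14.3 CPM in the inputs and at 17.98, 16.8 and 16.6 CPM in the IPs. Its log2 fold change was 0.56 ± 0.18, with an edgeR adjusted p of 0.016; the call was lost without GFP input replicate 1 or 2 or GFP IP replicate 1, at an adjusted p of up to 0.0732. Pcdhgb2 was at 2.58, 2.08 and 3.64 CPM in the inputs and at 7.32, 5.27 and 6.62 CPM in the IPs, a log2 fold change of 1.20 ± 0.29.

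Pcdhgc3 stood at 123, 112 and 107 CPM in the GFP IPs, a log2 fold change of -0.12 ± 0.10 against the input (edgeR adjusted p = 0.32). The share of gamma counts held by Pcdhgc3 was 72.0, 72.5 and 67.4% in the GFP inputs and 51.9, 50.6 and 51.9% in the GFP IPs. The 2 sets of shares do not overlap. Their 95% Clopper-Pearson intervals run from 65.0 to 74.7% over the inputs and from 48.2 to 54.7% over the IPs.

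The rows Pcdhga5, Pcdhga6, Pcdhga7, Pcdhga8, Pcdhga9, Pcdhga10, Pcdhga11, Pcdhgb4 and Pcdhgb5 had mean levels of 0.0368 to 0.298 CPM in the GFP inputs and of 1.16 to 2.12 CPM in the GFP IPs. In the IPs Pcdhga8 was at 2.06, 1.59 and 2.71 CPM, above its inputs at 0, 0 and 0.331 CPM. It held 3 counts over the GFP inputs and 45 over the GFP IPs, a ratio of 17.0 per count sequenced with a 95% counting interval of 5.44 to 85.3. Pcdhgb4 held 1 and 40 counts, a ratio of 45.2 (7.66 to 1830), with IPs at 3.08, 0.981 and 1.36 CPM. Pcdhga7 held 2 and 31 counts, a ratio of 17.5 (4.46 to 151), with IPs at 1.54, 1.72 and 0.848 CPM. All of these IPs were above all inputs of the same row. Pcdhga11 was at 0, 0.231 and 0.110 CPM in the inputs and at 1.80, 2.33 and 0.848 CPM in the IPs, a ratio of 14.3 (4.54 to 72.5). Pcdhgb5 was at 0, 0.231 and 0.110 CPM and at 1.67, 0.491 and 2.21 CPM, a ratio of 11.3 (3.52 to 57.9). These rows had high folds on few counts, and their gains in CPM were alike in size: IP minus input was 2.01 CPM for Pcdhga8, 1.77 for Pcdhgb4, 1.30 for Pcdhga7, 1.55 for Pcdhga11 and 1.34 for Pcdhgb5.

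The other called gamma rows and Pcdhb20 had counts in at least 2 GFP inputs, as had Pcdhga11 and Pcdhgb5. They are among the 14 rows that passed the filter mainly through the IPs, so their calls follow in part from the filter. Pcdhga4 was at 0.287, 0.809 and 0.551 CPM in the GFP inputs and at 2.44, 1.96 and 2.88 CPM in the GFP IPs, a log2 fold change of 2.07 ± 0.47. Pcdhga5 was at 0, 0.231 and 0.662 CPM in the inputs and at 2.57, 1.59 and 1.87 CPM in the IPs, a log2 fold change of 2.60 ± 0.62. Pcdhga6 was at 0, 0.231 and 0.221 CPM and at 1.16, 1.47 and 0.848 CPM (2.77 ± 0.74). In all 3 rows the IPs were above the inputs. Pcdhga9 was at 0, 0.347 and 0.331 CPM in the inputs and at 2.70, 1.35 and 2.21 CPM in the IPs (3.03 ± 0.68), again without overlap. The pseudogene Pcdhgb8 was at 0.574, 0.116 and 0.772 CPM and at 1.93, 1.59 and 1.36 CPM (1.72 ± 0.63), also without overlap. Pcdhga12 was at 1.29, 0.347 and 0.772 CPM in the inputs and at 1.93, 1.96 and 1.87 CPM in the IPs. Its call (log2 fold change 1.28 ± 0.52, edgeR adjusted p = 0.045) was lost in 5 of 6 fits that left out 1 library, up to an adjusted p of 0.18; only the fit without GFP input replicate 1 kept it. Pcdhb20 is the 1 beta row besides Pcdhb22 that was called, with 1.15, 0.925 and 2.43 CPM in the inputs and 2.18, 3.68 and 4.24 CPM in the IPs, which overlap. Its call was lost without GFP input replicate 1 or 2 or GFP IP replicate 2 or 3, at up to 0.127. That of Pcdhgb8 was lost without GFP input replicate 2 or GFP IP replicate 1 or 2, at up to 0.126.

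Some rows along the gamma cluster differed in level from their neighbours. The consecutive rows from Pcdhga5 to Pcdhga9 were all at 0.0368 to 0.298 CPM in the GFP inputs. Likeness between neighbours was not tested. Pcdhga3, between the low row Pcdhga2 and the high row Pcdhgb1, was at 2.73, 1.85 and 1.76 CPM in the GFP inputs and 3.08, 2.33 and 2.04 CPM in the IPs, which overlap (log2 fold change 0.26 ± 0.38, not called). Pcdhga1, the first gamma gene, was at 2.73, 2.43 and 2.21 CPM and at 2.31, 4.78 and 4.07 CPM (0.60 ± 0.35, not called). Over the beta cluster, Pcdhb17, Pcdhb18, Pcdhb19 and Pcdhb21 had log2 fold changes between -0.40 and 0.51, none of them called.

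**Figure D3:**
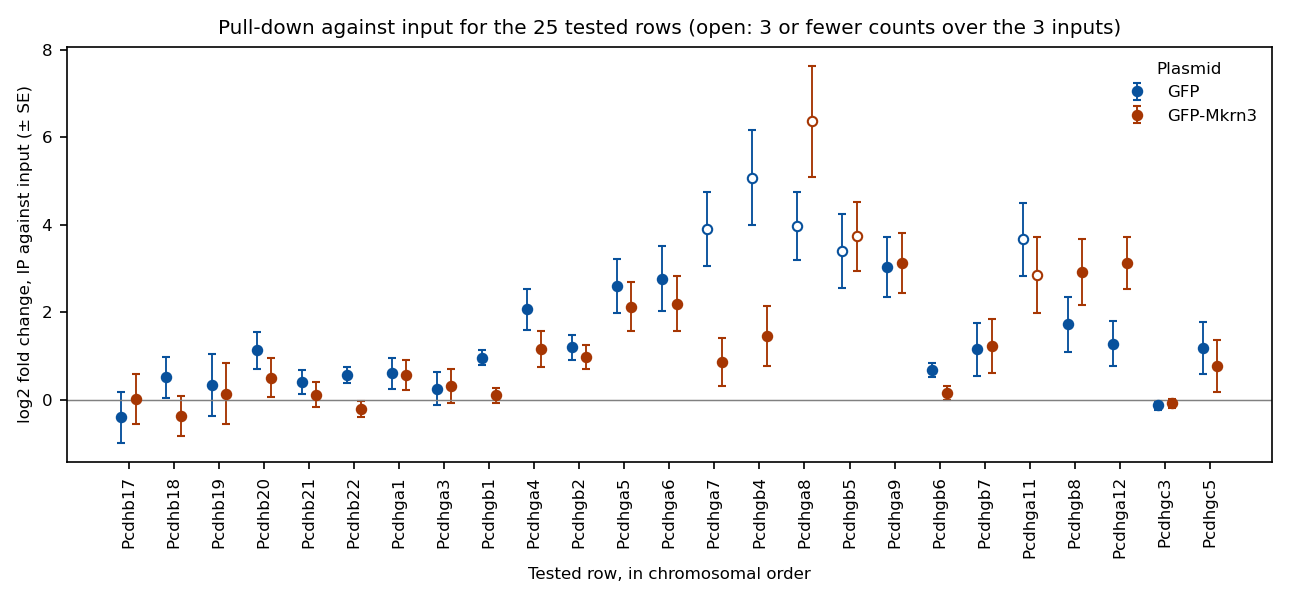
log2 fold change of IP against input (fitted value ± SE from edgeR) for the 25 tested rows in chromosomal order, with GFP in blue and GFP-Mkrn3 in brown; open symbols mark rows with 3 or fewer counts over the 3 inputs, whose fitted fold depends on a small added count. Pcdhgc3 lies near 0, the beta rows lie from -0.40 to 1.13 for GFP, the rows from Pcdhga4 to Pcdhga12 other than Pcdhgb6 mostly lie above 1 for both plasmids, and Pcdhgb1, Pcdhgb6 and Pcdhb22 are higher for GFP than for GFP-Mkrn3.

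With the GFP-Mkrn3 plasmid, the summed gamma A level was again higher in the IP, though Pcdhga1, Pcdhga3 and Pcdhga7 were not called, and the 4 most abundant rows were not called. The gamma A sum was 9.02, 6.72 and 7.25 CPM in the inputs and 19.9, 19.0 and 22.7 CPM in the IPs, without overlap and 2.68 times as high on average. The gamma B sum was 54.4, 42.3 and 49.0 CPM in the inputs and 60.8, 54.0 and 68.2 CPM in the IPs, where the lowest IP lies below the highest input. The beta sum was 24.5, 20.3 and 21.3 CPM in the inputs and 20.7, 18.6 and 22.4 CPM in the IPs, with overlap.

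Of the 25 tested rows, 10 were called higher and 0 lower, where 13.9% of all tested genes were higher and 12.8% lower. Over all genes these were 1812 and 1675 calls, and with library size alone 2599 and 1263, with a median of 0.11. Of the 11 rows that reached the filter's level in the inputs 1 was called (Pcdhgb2), and of the other 14 rows 9 were. In the count without a filter, 14 of 22 gamma rows and 1 of 18 beta rows had every IP above every input (14.7% of all rows), and none had every IP below (10.9%). Without GFP-Mkrn3 input replicate 2 the tested rows called were 5; in the other fits that left out 1 library they were 7 to 9.

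Pcdhgb2 was at 4.06, 2.24 and 3.11 CPM in the GFP-Mkrn3 inputs and at 6.09, 6.40 and 6.07 CPM in the IPs. Its log2 fold change was 0.98 ± 0.27 (edgeR adjusted p = 0.013), and the call was lost without GFP-Mkrn3 input replicate 2 (0.0757). Pcdhga8 held 0 counts over the inputs and 40 over the IPs, which were at 1.36, 0.897 and 1.24 CPM, so it was at least 9.07-fold higher per count sequenced, with the floor of 3 counts taken over the group. Pcdhgb5 held 3 and 64 counts, with IPs at 2.36, 1.54 and 1.57 CPM, a ratio of 14.5 (4.75 to 72.2). Pcdhga11 held 3 and 34 counts, with IPs at 1.00, 0.769 and 1.24 CPM, a ratio of 7.71 (2.42 to 39.2). In these rows, too, no IP was as low as an input.

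Further rows of the gamma cluster were called on few input counts. They are among the 14 rows that passed the filter mainly through the IPs, so their calls follow in part from the filter. Pcdhga12 was at 0.254, 0.132 and 0.345 CPM in the GFP-Mkrn3 inputs and at 1.64, 1.86 and 3.48 CPM in the IPs, a log2 fold change of 3.13 ± 0.60. Pcdhga9 was at 0.381, 0.132 and 0.115 CPM and at 1.36, 1.47 and 3.03 CPM (3.12 ± 0.69). Pcdhgb8 was at 0.381, 0.132 and 0 CPM and at 1.46, 0.897 and 1.80 CPM (2.91 ± 0.76). In all 3 the libraries did not overlap, and IP replicate 3 was the highest. Pcdhga6 was at 0.508, 0.264 and 0.115 CPM and at 1.73, 1.02 and 1.46 CPM (2.20 ± 0.63). Pcdhga5 was at 0.635, 0.264 and 0.460 CPM and at 2.27, 1.92 and 1.91 CPM (2.13 ± 0.56). Both rows had all IPs above all inputs, as had Pcdhga4, at 1.27, 1.05 and 0.690 CPM in the inputs and at 2.64, 1.99 and 2.13 CPM in the IPs. The call of Pcdhga4 (1.16 ± 0.42, edgeR adjusted p = 0.048) was lost whichever of the 6 compared libraries was left out, at 0.0693 to 0.184. The calls of Pcdhga6 (without GFP-Mkrn3 input replicate 2 or 3 or IP replicate 1, up to 0.0795), Pcdhga11 (without input replicate 1 or 2 or IP replicate 1, up to 0.0861) and Pcdhga5 (without input replicate 2, 0.0514) also rested on single libraries.

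Among the abundant rows, Pcdhgb1 was at 23.9, 20.8 and 27.4 CPM in the GFP-Mkrn3 inputs and at 23.5, 23.8 and 30.4 CPM in the IPs. The groups overlap, and the log2 fold change was 0.10 ± 0.17. Pcdhgb6 was at 24.6, 18.2 and 16.3 CPM and at 23.8, 18.8 and 23.6 CPM (0.16 ± 0.16), and Pcdhb22 at 15.5, 11.2 and 12.8 CPM and at 11.5, 9.99 and 12.7 CPM (-0.22 ± 0.18). Pcdhgc3 was at 108, 125 and 94.0 CPM in the IPs (-0.08 ± 0.10), a sign that turns with library size alone. None of these 4 was called. Pcdhgc3 took 64.7, 69.7 and 66.7% of the gamma counts in the inputs and 56.6, 62.6 and 50.3% in the IPs. The shares themselves do not overlap, but their 95% Clopper-Pearson intervals do, from 62.1 to 72.3% over the inputs and from 47.9 to 64.3% over the IPs.

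Detected genes and marker sums moved with the IPs as well. The GFP IPs held 17942 to 18421 detected genes against 15566 to 17525 in the GFP inputs, and the GFP-Mkrn3 IPs 19288 to 20599 against 17246 to 17584 in their inputs. For the 15 fibroblast, endothelial and immune markers, the summed level was 501 to 541 CPM in the GFP inputs and 892 to 1010 CPM in the GFP IPs. With GFP-Mkrn3 it was 506 to 536 and 640 to 649 CPM. Cldn5, Lum and Ptprc were at 0 in all 4 RIP groups, whereas Kdr, Col1a2 and Pdgfra had means of 218, 154 and 112 CPM in the GFP inputs. In the GFP IP against input, 4 of the 6 tested markers were called higher and 0 lower, where 25.1% of all tested genes were higher and 25.2% lower. The summed GnRH neuron markers were 853 to 915 CPM in the GFP inputs and 527 to 543 CPM in the GFP IPs, and 898 to 962 and 782 to 819 CPM with GFP-Mkrn3. The part of these values in the protocadherin results was not tested.

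The third comparison set the IPs of both plasmids side by side. Of the 25 tested rows, 4 were lower with GFP-Mkrn3 and 0 were higher, where 17.2% of all tested genes were lower and 20.4% higher. The share of rows called lower was thus close to that of all genes. Pcdhb22 was at 17.98, 16.8 and 16.6 CPM in the GFP IPs and 11.5, 9.99 and 12.7 CPM in the GFP-Mkrn3 IPs, a log2 fold change of -0.60 ± 0.18. Pcdhgb1 fell by 0.56 ± 0.17 on the log2 scale, from 37.6, 41.0 and 35.6 CPM to 23.5, 23.8 and 30.4 CPM. Pcdhgb6 fell by 0.46 ± 0.16, from 32.4, 32.3 and 26.1 CPM to 23.8, 18.8 and 23.6 CPM. Pcdhb21 fell by 0.88 ± 0.27, from 5.65, 5.64 and 4.58 CPM to 2.73, 3.27 and 2.58 CPM. In none of the 4 did the groups overlap. Without a filter, 8 of the 42 rows with counts, 4 gamma and 4 beta, had every GFP-Mkrn3 IP below every GFP IP, against 11.9% of all rows.

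Of these 4 calls, 3 were lost under another scaling. With library size alone in place of TMM, 1 of them was called, Pcdhb21; Pcdhb22 then had an edgeR adjusted p of 0.0663, Pcdhgb1 one of 0.0738 and Pcdhgb6 one of 0.165. That scaling moved the median log2 fold change of all genes between the IPs from 0.03 to 0.21 and the calls from 2661 higher and 2246 lower to 4104 higher and 1154 lower. Leaving out 1 library left 1 to 4 calls, with 1 without GFP IP replicate 2 and 2 without GFP IP replicate 1, GFP-Mkrn3 IP replicate 1 or GFP-Mkrn3 IP replicate 2. The gamma A sum of the GFP-Mkrn3 IPs was 0.894 times that of the GFP IPs with TMM and 1.01 times with library size alone, and the gamma C sum 0.953 and 1.08 times, so neither has a direction that holds under both.

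The last RIP comparison asked whether the IP held a row beyond what the GFP control held, as the difference between the 2 IP-to-input contrasts. No row was called higher and 3 of 25 were lower, against 13.2% higher and 11.1% lower of all tested genes. The share of rows called lower was thus close to that of all genes. The difference was -0.86 ± 0.24 for Pcdhgb1 (edgeR adjusted p = 0.015), -0.78 ± 0.26 for Pcdhb22 (0.034) and -3.04 ± 1.07 for Pcdhga7 (0.044) on the log2 scale. For Pcdhgb1 it joins a change of 0.96 with GFP to one of 0.10 with GFP-Mkrn3, and for Pcdhb22 one of 0.56 to one of -0.22. For Pcdhga7 it rests on low inputs: 0, 0 and 2 counts in the GFP inputs, and 0.889, 1.19 and 0.345 CPM in the GFP-Mkrn3 inputs, against 1.54, 1.72 and 0.848 CPM and 1.27, 1.60 and 1.46 CPM in the IPs. Pcdhgc3 differed by 0.05 ± 0.14 and Pcdhgb2 by -0.22 ± 0.40, neither called.

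Of the 3, the Pcdhgb1 call was the steadiest: it was lost in 1 of 12 fits without 1 library, that without GFP-Mkrn3 input replicate 3 (edgeR adjusted p = 0.0506). The Pcdhb22 call was lost in 9 of 12 such fits, at up to 0.105, all but those without GFP input replicate 3, GFP-Mkrn3 input replicate 2 or GFP-Mkrn3 IP replicate 3. The Pcdhga7 call was lost in 8 of 12, at up to 0.124; it held without GFP input replicate 3, GFP IP replicate 3, GFP-Mkrn3 input replicate 3 or GFP-Mkrn3 IP replicate 3. Over all genes, library size alone gave 2845 higher and 603 lower calls in place of 1724 and 1454, and then 1 protocadherin row lower.

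The fractionation experiment asked whether protocadherin RNA differed between the lines labelled Mkrn3ox and wt, or between cytoplasm and total RNA. It held too few counts to tell: 18 of 58 rows held any, 96 counts in all, with 1 to 24 per library. No row passed the filter on low counts. The 5 contrasts therefore tested 0 rows, where 7.39% of all tested genes were called between the lines in total RNA, 10.5% in the cytoplasm, 3.78 and 4.53% between cytoplasm and total RNA in wt and Mkrn3ox cells, and 0.219% for the difference between these. Some of these all-gene counts moved by over 1.5 times without 1 library: the 11 genes of the last contrast became 35 without wt total replicate 1. The 372 genes between the lines in total RNA became 234 to 238 without wt total replicate 3 or without any 1 of the Mkrn3ox total libraries, and the 228 between cytoplasm and total RNA in Mkrn3ox cells became 125 to 146 without Mkrn3ox total replicate 1 or without any 1 of the Mkrn3ox cytoplasm libraries. With no filter, edgeR also called 0 of the 18 rows in each contrast, with 0 or 1 at an unadjusted p under 0.05. A count of 0 in these libraries allows up to 3.95 to 8.01 CPM.

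The fractionation counts sat in few libraries. Pcdhac2, the C-type alpha gene, held 27 counts, with 0, 5 and 21 in the libraries labelled Mkrn3ox cytoplasm, 1 in Mkrn3ox total replicate 2 and 0 in the other 8 libraries. It was at 0 in all 12 RIP libraries. Pcdhb22 held 20 counts, with 3, 6 and 0 in wt total, 0, 6 and 0 in wt cytoplasm, 2, 0 and 3 in Mkrn3ox cytoplasm and 0 in Mkrn3ox total. Pcdhga3 held 14, with 1, 0 and 5 in wt total and 4, 4 and 0 in Mkrn3ox total. All 8 counts of Pcdhb14 were in wt total replicate 2, and all 4 of Pcdhb20 in wt cytoplasm replicate 2. Pcdhb21 held 6 counts, with 3 in Mkrn3ox total replicate 3, 2 in wt cytoplasm replicate 3 and 1 in Mkrn3ox cytoplasm replicate 1. Pcdhb17 held 3, all in wt cytoplasm replicate 3. The other 11 rows with counts held 1 or 2 each.

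The rows that lead the RIP table were almost empty here. Pcdhgc3 held 0, 2 and 0 counts in wt total RNA, where its mean share of the GFP inputs would have given 80.3, 72.4 and 95.2 counts at the depth of these libraries. Pcdhgb1 held 0 counts in each where the same share would have given 12.5, 11.3 and 14.9, and Pcdhgb6 held 0 where it would have given 12.2, 11.05 and 14.5. Pcdhb22, with 3, 6 and 0 counts, was nearer to the 7.47, 6.74 and 8.86 of that share. The bordering genes varied: Taf7, between the beta and gamma clusters, held 10, 7 and 10 counts against 9.63, 8.69 and 11.4, while Diaph1, just beyond the gamma cluster, held 7, 21 and 20 against 180, 162 and 213. Hars, Zmat2 and Hdac3 were also below that share in each library, Hars with 9, 10 and 18 against 87.2, 78.7 and 104. The tables were made separately, so these values are set side by side without a test.

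**Figure D4:**
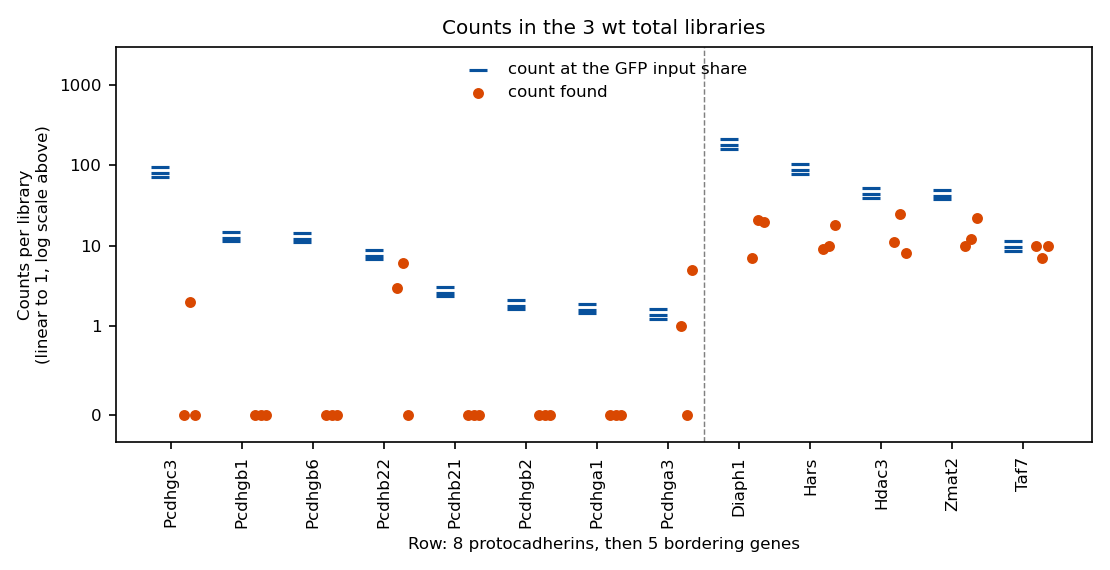
Counts of 8 protocadherin rows and 5 bordering genes in the 3 wt total RNA libraries (points), beside the counts that the mean share of each row in the GFP inputs would give at the same depth (bars); the axis is linear up to 1 and logarithmic above. Pcdhgc3, Pcdhgb1 and Pcdhgb6 lie at 0 to 2 counts, below their bars; of the bordering genes Taf7 lies at its bars and Hars, Zmat2, Diaph1 and Hdac3 lie below theirs.

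Genes that act on or with the clustered protocadherins were read from gene lists, whose counts are given with TMM. In the inputs edgeR and DESeq2 called 0 of them; at an unadjusted p under 0.05 edgeR had 2 of 11 genes of CTCF and cohesin, 1 of 14 signalling partners and 0 of the others. Among all tested genes, 25.1% were higher and 25.2% lower in the GFP IP against input. The shares were 13.9 and 12.8% with GFP-Mkrn3 and 13.2 and 11.1% beyond GFP. CTCF, which sets promoter choice, and the cohesin genes gave 7 higher and 1 lower of 11 tested genes in the GFP IP against input (median log2 fold change 0.31, against 0.00 for all genes), with Pds5a at 0.60 ± 0.08, Smc1a at 0.60 ± 0.11 and Rad21 at -0.52 ± 0.09. With GFP-Mkrn3 they gave 2 higher and 4 lower, and beyond GFP 0 higher and 8 lower, with Smc1a at -1.07 ± 0.15 and Ctcf at -0.57 ± 0.12. With library size alone the count beyond GFP was 0 higher and 2 lower, and the median -0.26 in place of -0.46. The 11 silencers of the clusters, among them the DNA methyltransferases, gave 9 higher and 0 lower in the GFP IP (median 0.60). Dnmt1, which maintains DNA methylation, went from 455 to 956 CPM on average (1.07 ± 0.09) and Setdb1, a histone H3 lysine methyltransferase, had 0.90 ± 0.08. With GFP-Mkrn3 there were 4 higher and 1 lower, and beyond GFP 0 higher and 6 lower, with Dnmt3a at -0.84 ± 0.14 and Dnmt1 at -0.82 ± 0.12. With library size alone the silencers gave 1 higher and 4 lower beyond GFP.

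The non-clustered protocadherins, single genes elsewhere in the genome, were fewer. Of 12 listed, 4 were tested in the RIP table and 0 were called in either IP against its input. Pcdh15, a component of the hair-cell tip link, had the most counts, 822 to 1760 per library, and was lower in the GFP-Mkrn3 IPs than in the GFP IPs (-0.23 ± 0.09, edgeR adjusted p = 0.048), a call that library size alone did not keep. In the fractionation table Pcdh15 was the 1 listed gene tested. It held 19, 24 and 26 counts in wt total and 2, 0 and 2 in the libraries labelled Mkrn3ox total, a log2 fold change of -3.81 ± 1.02 (edgeR adjusted p = 0.024). In the cytoplasm it held 24, 25 and 3 counts in wt and 0, 0 and 5 in the libraries labelled Mkrn3ox (-3.37 ± 1.01, edgeR adjusted p = 0.034), a call that library size alone did not keep.

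Signalling partners, such as the WAVE complex that the protocadherin tail can recruit, gave 5 higher and 6 lower of 14 in the GFP IP, and 1 higher and 3 lower with GFP-Mkrn3. The shares of all tested genes, higher and lower, were 25.1 and 25.2%, 13.9 and 12.8%, and beyond GFP 13.2 and 11.1%. Beyond GFP, Brk1 (1.05 ± 0.21) and Rac1 (0.53 ± 0.12) were higher and Abi2 (-0.59 ± 0.13) and Prkca (-0.58 ± 0.12) lower. Of the proteases that shed the ectodomain or cut the tail free, 2 of 8 were higher and 1 lower in the GFP IP, 0 higher and 3 lower with GFP-Mkrn3, and beyond GFP Psenen was higher (0.77 ± 0.24) and Adam10 lower (-0.76 ± 0.15). Of 9 tested genes that border the clusters, 2 were higher and 3 lower in the GFP IP, 0 higher and 3 lower with GFP-Mkrn3, and beyond GFP 2 were lower, Diaph1 (-0.73 ± 0.11) and Hars (-0.44 ± 0.15). Beyond GFP the medians of the last 3 lists were -0.03, -0.17 and -0.18 with TMM and 0.16, 0.02 and 0.01 with library size alone, so none of these medians has a sign that holds under both. In the fractionation table, the lists for CTCF and cohesin and for signalling partners gave 0 calls between the lines in both kinds of RNA, with edgeR and DESeq2; at an unadjusted p under 0.05 edgeR had 2 and 3 of 10 genes for CTCF and cohesin, and 2 and 2 of 10 partners, in total RNA and cytoplasm. Among all tested genes, 7.39% were called between the lines in total RNA and 10.5% in the cytoplasm. Of the silencers, Uhrf1 was higher in the cytoplasm of the line labelled Mkrn3ox (1.32 ± 0.32). Of the 3 tested proteases, Adam17 was higher in the line labelled Mkrn3ox in total RNA (1.63 ± 0.22) and cytoplasm (1.85 ± 0.23), and Adam10 was lower in both (-0.90 ± 0.23 and -1.86 ± 0.25). Aph1a, a part of the gamma-secretase complex, was lower in the cytoplasm (-1.28 ± 0.34); with library size alone the proteases gave 1 higher and 1 lower there. Of 8 tested bordering genes, Rell2 was higher in both kinds of RNA (1.44 ± 0.31 and 1.04 ± 0.32), Fchsd1 in total RNA (1.54 ± 0.43) and Dnd1 in the cytoplasm (1.09 ± 0.31), and 0 were lower.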

How the data were processed

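Total and cytoplasmic RNA (12 libraries) and RIP inputs and IPs (12 libraries) were sequenced by CEL-seq2, per the labels' protocols. Per the submitters' processing notes, cutadapt, STAR, HTSeq and mm10 were used; their versions, the annotation and the strand setting cannot be read from the labels or files, nor can any use of molecular identifiers. The deposited values are raw counts per gene, made by the authors. Nothing was removed, and the labels gave each library's group.

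Each table was fitted apart with edgeR 4.0.16 in R 4.3.3 over its 4 groups: TMM scaling, filterByExpr with a minimum count of 10 (5033 and 13052 genes tested), group means, the quasi-likelihood F test, two-sided, and Benjamini-Hochberg adjustment over all tested genes. Levels are CPM on the TMM scale. Alternatives were DESeq2 1.42.0 size factors and test, library size alone, no filter, a mean of at least 20 counts, the compared groups alone, a replicate block and leaving out each library. The fit was tested on simulated data. Replicates differed by more than sampling noise. Correlations between same-numbered libraries showed no clear pairing, but with 3 libraries a group they cannot show that input and IP are unpaired. The main fit did not pair the libraries.

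The members, lists and tests were chosen with earlier results of these data known. All members are accounted for; library values are given for those called and for the 8 highest in each experiment, and of each other list for up to 4 called genes with a mean of at least 20 counts. Pcdh15 in the fractionation table is below that mean and was chosen after its values were seen. For the silencers, calls between the lines in total RNA are not reported here. Positions are from RefSeq GRCm38.p6.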

Additional observations from a re-analysis of the deposited data

Results flagged for a closer look

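The difference between the IP-to-input contrasts of the 2 plasmids passed the test for 3 of 25 tested rows, all lower. Among all tested genes 11.1% were lower, a share close to that of these rows, and with library size alone 1 row was called. The difference was -0.86 for Pcdhgb1, -0.78 for Pcdhb22 and -3.04 for Pcdhga7 on the log2 scale. For Pcdhb22 and Pcdhga7 most fits without 1 library lost the call, and Pcdhga7 rests on 2 counts over the GFP inputs.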

How the results depend on the processing

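The 0 calls in the inputs stayed at 0 in every alternative run. In the fractionation contrasts no row entered a fit except without a filter, so their 0 calls say nothing of stability. With a mean of at least 20 counts, the rows called were 4 in the GFP IP against input and 1 with GFP-Mkrn3, since fewer rows are tested. Fitting the compared groups alone gave 10 and 6. Library size alone gave 1 between the IPs and 1 for the difference beyond GFP; the cause was not tested. Leaving out 1 library gave 13 to 16 for GFP, 5 to 9 for GFP-Mkrn3, 1 to 4 between the IPs, 1 to 4 beyond GFP and 0 in the inputs. No row called in the main fit changed direction in a fit that tested it. Under scaling by library size the median of all genes moved to 0.23 beyond GFP; in the fractionation table, calls were 507 and 189 between the lines in the cytoplasm (main 217 and 309) and 252 and 163 in total RNA (main 179 and 193).

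Without a filter 34 genes were called in the inputs in place of 2, DESeq2 called 6 and the compared groups alone 4. With all genes counted, 1 was called without GFP input replicate 2 or any 1 of the GFP-Mkrn3 inputs. For the difference between the cytoplasm-to-total ratios, 43 genes were called without a filter and 42 by DESeq2 in place of 11. Calls were followed row by row for the rows called in any contrast and the 8 highest. Among these, Pcdhgb4 was the 1 uncalled result that became called, beyond GFP, without a filter (adjusted p = 0.0386 in edgeR) and without GFP-Mkrn3 IP replicate 3 (0.0212). Other rows did so too: without GFP input replicate 1 the GFP IP calls stayed at 16, although those of Pcdhb20 and Pcdhb22 were lost.

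With the replicate number as a block, the rows called were 0 in the inputs, 16 for GFP, 9 for GFP-Mkrn3, 4 between the IPs, 2 beyond GFP and 0 in each fractionation contrast. Same-numbered libraries correlated from -0.146 to 0.238 in the RIP table and from -0.0669 to 0.0393 in the other, so the pairing was not taken as given. Low depth limits the fractionation table, and counts of 3 or fewer limit many gamma inputs.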
